A study of Homo sapiens with 5 samples.

Results

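N87-TR4 was compared with N87-TR1 and N87-TR2, all 3 of them trastuzumab-resistant lines named after NCI-N87, a human gastric cancer line with an amplified ERBB2 gene. Trastuzumab is an antibody against the ERBB2 receptor. Each line was measured once, as total RNA from subconfluent cells on an Illumina BeadChip, so the comparison sets 1 array against 2. The labels describe every line as grown in the same RPMI medium with serum, name no drug in that medium and do not say whether the resistant lines were derived separately. The remaining arrays, the resistant N87-TR3 and the sensitive NCI-N87, entered the normalization but not the comparison. Their levels are given beside some of the named genes. All genes with a probe of 1 gene symbol and a detection p-value under 0.01 on at least 1 of the 3 compared arrays were included, which gave 11720 of 20044 genes with such a probe.

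Median probe signals before normalization ran from 133.8 to 158.2 over the 5 arrays, and N87-TR4 had the highest. It also had the most detected genes, 11069 against 10749 in N87-TR1 and 10894 in N87-TR2. Levels below are log2 normalized signals, on which a difference of 1 is 2-fold. The epithelial adhesion gene EPCAM, a marker of carcinoma cells, was at 10.49 in N87-TR4, 10.17 in N87-TR1 and 8.85 in N87-TR2, and E-cadherin (CDH1) at 8.61, 9.95 and 8.11. The keratin KRT8 was at 7.13, 9.07 and 6.01, and was not detected in N87-TR2. Of the 7 carcinoma or epithelial markers 5 were tested, and 2 were detected in none of the 3 lines. The median of those tested was 8.32 in N87-TR4, 9.07 in N87-TR1 and 8.31 in N87-TR2, against 13.10 in NCI-N87. Of the markers of other cell types, 1 of 7 fibroblast genes, 2 of 7 leukocyte genes and 0 of 5 endothelial genes were detected, none of them apart. In a culture, fewer cells of a type and less RNA per cell cannot be told apart.

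Neurofilament proteins, among them the medium chain NEFM, are intermediate filaments of neurons. Interferon-stimulated genes are switched on after interferons bind their receptors, and many carry the interferon-stimulated response element in their promoters, which IRF factors bind. Genes of cholesterol synthesis are driven together by the factor SREBF2 when membrane sterol is low, and ETS factors such as ETV5 are induced through FGF receptors and ERK kinases.

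Promoters are printed for the 3 interferon-stimulated genes that stood furthest above both reference lines, because all 3 hold the letters GAAANNGAA of that response element. They are RefSeq windows of build GRCh38.p14, from 250 bases before to 50 bases after the start site, in the direction of the gene, with each match on either strand in capitals. IFITM3, on the minus strand at chr11:320811-321110, holds 2 matches. PARP14, on the plus strand at chr3:122680589-122680888, and SAMD9, on the minus strand at chr7:93117930-93118229, hold 1 each.
IFITM3: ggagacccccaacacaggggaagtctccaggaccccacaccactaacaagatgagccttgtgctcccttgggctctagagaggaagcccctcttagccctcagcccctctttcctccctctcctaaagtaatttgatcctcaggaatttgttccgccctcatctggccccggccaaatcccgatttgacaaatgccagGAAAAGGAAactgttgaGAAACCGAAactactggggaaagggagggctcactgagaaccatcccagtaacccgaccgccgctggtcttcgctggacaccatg
PARP14: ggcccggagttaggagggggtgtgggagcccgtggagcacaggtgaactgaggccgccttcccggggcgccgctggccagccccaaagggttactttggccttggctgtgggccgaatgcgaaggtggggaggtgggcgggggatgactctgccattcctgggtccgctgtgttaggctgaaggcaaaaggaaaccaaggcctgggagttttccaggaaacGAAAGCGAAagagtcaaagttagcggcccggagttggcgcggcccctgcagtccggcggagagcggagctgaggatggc
SAMD9: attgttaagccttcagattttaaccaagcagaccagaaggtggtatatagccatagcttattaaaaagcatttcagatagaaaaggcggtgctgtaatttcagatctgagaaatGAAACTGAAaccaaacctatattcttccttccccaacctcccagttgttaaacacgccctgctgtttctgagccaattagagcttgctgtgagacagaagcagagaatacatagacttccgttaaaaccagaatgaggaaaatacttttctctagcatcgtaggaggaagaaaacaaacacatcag
The letters GAAANNGAA were present in 8.11% of the 35116 RefSeq promoters of this length, and in 21 of the 33 tested interferon-stimulated genes with such a promoter. Among those 33 genes it was present in 13 of 20 that lay above both reference lines in N87-TR4, in 5 of 10 that lay between them and in 3 of 3 that lay below both. The letters TCACNCCAC, a form of the sterol regulatory element, were present in 1.13% of all promoters and in 1 of 33 tested cholesterol and fatty acid genes.

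N87-TR4 was the line nearest to the other pair. The number of genes at least 2-fold apart was 784 between N87-TR4 and N87-TR1 and 457 between N87-TR4 and N87-TR2, against 971 between N87-TR1 and N87-TR2. Of all genes tested, 38.6% had an N87-TR4 level between those of the reference lines, 30.9% lay above both and 30.5% below both. A gene was called apart when N87-TR4 lay outside both reference levels, by at least 2-fold from the nearer one and by more than the gap between them. This held for 93 genes, 54 higher (0.461% of the genes tested) and 39 lower (0.333%). The same rule turned around called 359 genes (3.06%) for N87-TR1 against N87-TR2 and N87-TR4, and 192 genes (1.64%) for N87-TR2. These comparisons share their arrays.

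**Figure D1:**
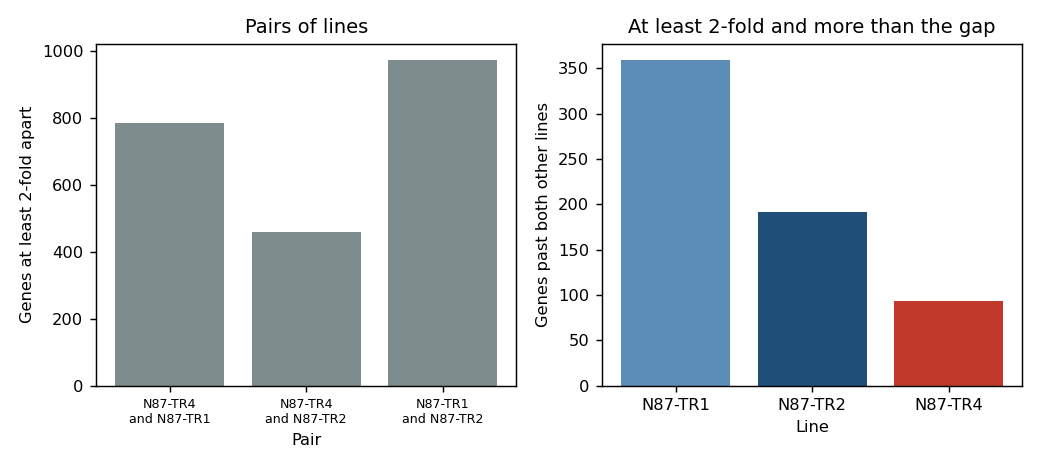
Left, the number of genes (y axis) at least 2-fold apart in each pair of the 3 lines (x axis). Right, the number of genes for which a line lay outside both others by at least 2-fold and by more than their gap, with 93 genes for N87-TR4, 192 for N87-TR2 and 359 for N87-TR1.

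In limma, fitted over the 11720 genes with 1 residual degree of freedom and 4.07 prior degrees of freedom, 0 genes had a Benjamini-Hochberg adjusted p under 0.05, and 229 had an unadjusted p under 0.05. The lone N87-TR4 array is assumed to vary like the reference lines. NEFM had the lowest limma adjusted p, 0.0506, and every other gene had an adjusted p of 1. An exact permutation test over 3 arrays cannot give a p below 0.333. Errors below are standard errors of the log2 difference between N87-TR4 and the mean of the reference lines in that fit, with 1 array against 2. Being apart is thus a description of these 3 arrays. Of the 93 genes, 17 higher and 26 lower ones were measured on all 3 arrays. A further 33 higher genes were detected only in N87-TR4 and 13 lower genes only in both reference lines, so they had passed the detection filter through the side where they were high. Another 4 higher genes were detected in N87-TR4 and 1 reference line. Just past the limit, 35 genes lay 1 to 1.1 from the nearer line, and just inside it 37 genes lay 0.9 to 1 away by more than the gap. Under scaling to the 75th percentile the split was 43 higher and 70 lower, and with detection required on all 3 arrays 17 higher and 26 lower.

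**Figure D2:**
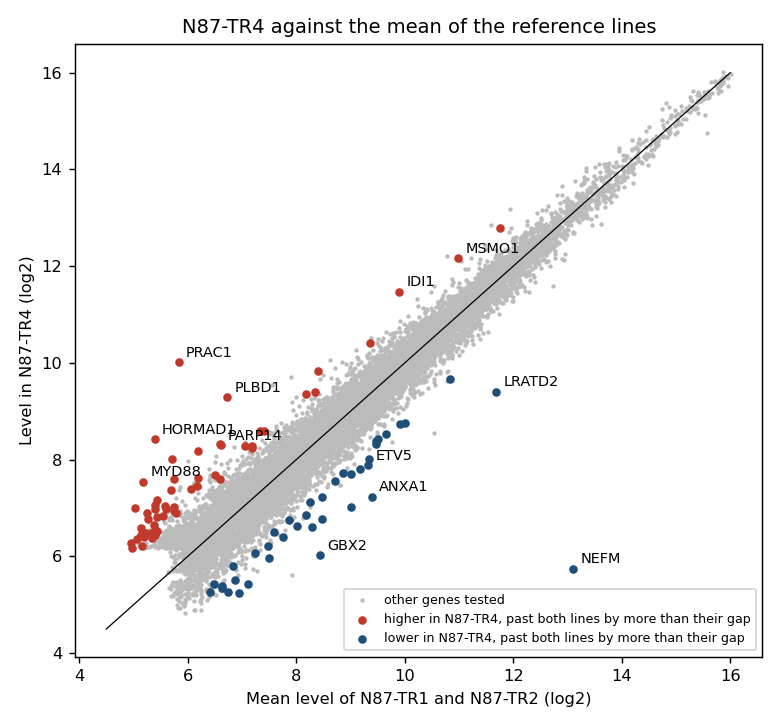
Each point is 1 of the 11720 genes, with its mean level in N87-TR1 and N87-TR2 (x axis, log2) against its level in N87-TR4 (y axis, log2). The diagonal marks equal levels, red points are the 54 genes higher in N87-TR4 and blue points the 39 lower, and NEFM lies alone at a reference mean of 13.11 and an N87-TR4 level of 5.74.

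The neurofilament gene NEFM was the widest difference. Its level was 5.74 in N87-TR4, where it was not detected, against 12.95 in N87-TR1 and 13.26 in N87-TR2. N87-TR3 was at 11.58 and the sensitive line NCI-N87 at 5.49, so the level in N87-TR4 was near that of NCI-N87 while the other 3 resistant lines were high. The log2 difference was -7.36 ± 0.36 (SE), at least 122.6-fold lower against the lowest level detected on the N87-TR4 array. A single probe measured NEFM. Its limma adjusted p was under 0.05 with 5 of the 6 other normalizations, from 0.000165 to 0.0306, and 0.0903 when the 3 arrays were normalized alone. The neighbouring gene NEFL, the light neurofilament chain, was at 9.80 in N87-TR4, 10.51 in N87-TR1 and 10.80 in N87-TR2, below both but by less than 2-fold. On the other side of NEFM, the hormone gene STC1 was at 7.91 in N87-TR4 and at 7.11 and 6.12 in the reference lines. Of the 34 tested neuronal genes, 6 lay above both reference lines and 15 below both, and NEFM was the 1 apart.

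PRAC1 and HORMAD1 led the genes that were higher. PRAC1, a small gene of the HOXB region known from prostate and distal gut, was at 10.02 in N87-TR4, 6.30 in N87-TR1 and 5.37 in N87-TR2. It was detected only in N87-TR4 among these lines and was at least 13.44-fold higher, with a log2 difference of 4.18 ± 0.49 (SE). N87-TR3 was also high at 9.17, and NCI-N87 was at 4.80. A second PRAC1 probe gave 10.06 in N87-TR4 against 5.67 and 4.82. Its neighbours did not share the difference, with HOXB13 at 6.95 in N87-TR4, between 6.60 and 6.999, and HOXB8 at 9.45, against 9.64 and 9.64. HORMAD1, a meiotic chromosome protein and cancer-testis antigen, was at 8.43 in N87-TR4, 5.73 in N87-TR1 and 5.05 in N87-TR2. It was at least 4.458-fold higher. NCI-N87 was at 7.67 and N87-TR3 at 4.85, so N87-TR4 and NCI-N87 were the lines with a high level. Of the 10 tested genes of the cancer-testis antigen list, which does not hold HORMAD1, 4 lay above both reference lines, 2 below both, and 0 were apart.

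**Figure D3:**
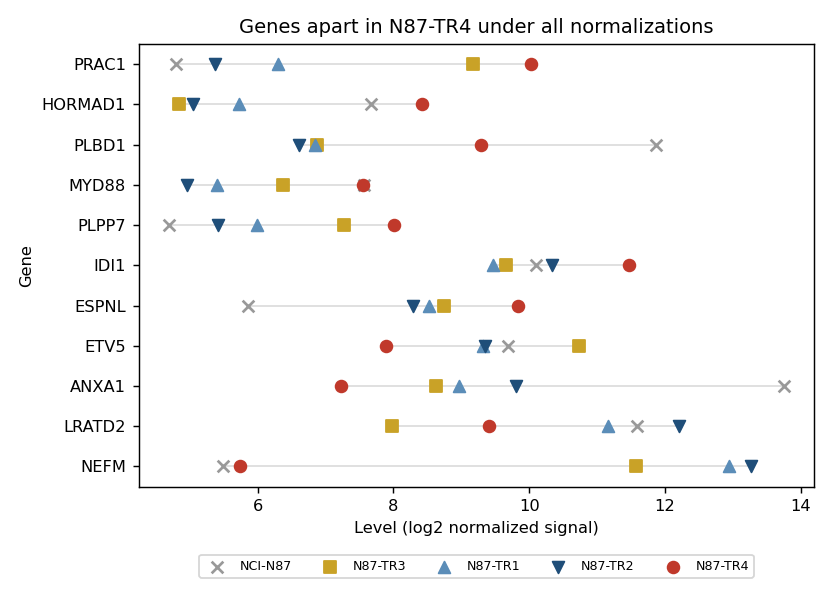
Levels (x axis, log2 normalized signal) of the 11 genes that stayed apart under all 6 other normalizations (y axis), with 1 symbol per line. N87-TR4 (red circles) lies to the right of both blue triangles for 7 genes and to the left for 4, with the widest gap at NEFM.

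The genes PLBD1, MYD88, PLPP7 and ESPNL also stood well above the reference lines. PLBD1, a phospholipase B-like protein, was at 9.29 in N87-TR4, 6.84 in N87-TR1 and 6.61 in N87-TR2, a log2 difference of 2.56 ± 0.35 (SE). N87-TR3 was at 6.87, so PLBD1 was higher in N87-TR4 than in the other 3 resistant lines, while NCI-N87 was higher still at 11.87. MYD88, the adaptor of Toll-like and interleukin-1 receptors, was at 7.55 in N87-TR4, 5.41 in N87-TR1 and 4.96 in N87-TR2, at least 2.42-fold higher. Its level in N87-TR4 was near that of NCI-N87, at 7.56. PLPP7, of the phospholipid phosphatase family, was at 8.01 against 5.996 and 5.42 and at least 3.339-fold higher. ESPNL, related to the actin bundler espin, was at 9.83 against 8.52 and 8.30. For PLPP7 and ESPNL NCI-N87 was low, at 4.70 and 5.85.

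Other higher genes covered enzymes, transporters and regulators. MAOA, a mitochondrial enzyme that breaks down serotonin and noradrenaline, was at 10.41 in N87-TR4, 9.36 in N87-TR1 and 9.35 in N87-TR2. The glucose transporter SLC2A10 was at 8.32 against 6.43 and 6.77, and the transporter-like SLC10A4 at 8.29 against 7.05 and 7.07. OSR1, a zinc finger factor of kidney and heart development, was at 8.60 against 7.35 and 7.34. For MAOA and OSR1 the reference lines were less than 0.05 apart. A second SLC10A4 probe was at 7.55 against 6.25 and 7.16, and with the mean of both the gene was no longer apart. The fucosyltransferase FUT4, which makes the Lewis x antigen, was at 9.36 against 8.36 and 8.02, and EOGT, which adds N-acetylglucosamine to secreted proteins, at 8.25 against 7.14 and 7.24. FUT4 lay only 1.002 from the nearer line and stayed apart under 1 of the 6 other normalizations. A second EOGT probe was at 7.39 against 7.12 and 7.18, with the mean of both EOGT was no longer apart, and it stayed apart under 2 of the 6 other normalizations. Of the genes detected only in N87-TR4, the lipid hydrolase NAAA was at 7.16 against 5.44 and 5.41, and the importin KPNA5 at 7.06 against 5.37 and 5.41. The neutrophil chemokine CXCL3 was at 6.996 against 4.82 and 5.24, at least 1.654-fold higher. These last genes lay close to the detection limit.

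Small nucleolar RNA genes, which guide chemical changes of ribosomal RNA, were 4 of the 54 higher genes and were grouped after their values were seen. SNORD31 was at 9.40 in N87-TR4, 8.33 in N87-TR1 and 8.38 in N87-TR2, and SNORD38A at 8.59, 7.25 and 7.57. SNORA75 was at 7.61, 5.54 and 5.93, and at least 2.52-fold higher. SNORA11 was at 6.45, 5.41 and 5.40, at least 1.134-fold higher and close to the detection limit. Of the 6 other normalizations, SNORD31 stayed apart under 3, SNORD38A under 2, SNORA75 under 4 and SNORA11 under 2. These 4 were among 128 tested genes of this kind, while 0.461% of all genes tested were apart and higher. Of the 128, 70 (54.7%) lay above both reference lines, against 30.9% of all genes tested, and 25 below both. Detected only in N87-TR4 were 6 of the 128, against 319 of all 11720 genes tested.

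Among the lower genes, LRATD2 and ANXA1 lay furthest below the reference lines of those measured in all 3. ANXA1, a calcium-dependent membrane-binding protein, was at 7.23 in N87-TR4, 8.97 in N87-TR1 and 9.81 in N87-TR2, a log2 difference of -2.16 ± 0.47 (SE). It was at 8.63 in N87-TR3 and 13.75 in NCI-N87, so N87-TR4 was the lowest of the 5 lines. LRATD2, a protein with a lecithin:retinol acyltransferase domain, was at 9.41 against 11.17 and 12.20. N87-TR3 was lower still for LRATD2, at 7.99. GBX2, a homeobox factor of the mid-hindbrain boundary, was at 6.02, not detected, against 9.03 and 7.85, and at least 4.834-fold lower.

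A receptor was lower, and its ligand was called higher close to the detection limit. The receptor TNFRSF12A was at 6.77 in N87-TR4, 8.90 in N87-TR1 and 8.06 in N87-TR2. Its ligand TNFSF12 was at 6.27 against 5.10 and 4.82, detected only in N87-TR4 and close to the detection limit. The bound for TNFSF12 was only at least 1.001-fold, and it stayed apart under 2 of the 6 other normalizations, so its difference is uncertain. LTBP1, which holds latent TGF-beta in the matrix, was at 5.44 against 7.18 and 7.06, at least 1.94-fold lower, and IL32, a cytokine, at 5.24 against 6.64 and 7.26, at least 1.719-fold lower. DDAH2, an enzyme of dimethylarginine breakdown, was at least 2.505-fold lower and the prefoldin subunit PFDN2 at least 2.107-fold lower.

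Further lower genes are given by what they encode. CTH, the cystathionine gamma-lyase that makes cysteine, was at 8.76 in N87-TR4, 9.90 in N87-TR1 and 10.11 in N87-TR2, and ARG2, the mitochondrial arginase, at 8.39 against 9.45 and 9.48. Of the 33 tested amino acid stress genes 4 lay above both reference lines and 14 below both, with CTH the 1 apart. AAK1, a kinase of the clathrin adaptor AP2, was at 6.86 against 8.20 and 8.15, and AP2B1, a subunit of that adaptor, at 7.13 against 8.30 and 8.21. HIP1R, which links clathrin to actin, was at 5.34, not detected, against 6.47 and 6.81, at least 1.386-fold lower. Of the 6 other normalizations, AAK1 stayed apart under 4, and AP2B1 and HIP1R under 3 each. These clathrin-related genes belong to no list used here and were set together after their values were seen. Other genes of this kind were not counted. ARRDC4, an arrestin-like protein, was at 7.82 against 9.11 and 9.25. The histone genes H2AC19 and H2AC20 lie close together and were at 8.74 and 8.32 in N87-TR4, 9.95 and 9.44 in N87-TR1, and 9.88 and 9.49 in N87-TR2. Histone probes can bind near-identical copies, so these 2 are uncertain, and of the 16 tested histone genes 4 lay above both and 6 below both.

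Among the remaining genes apart, THEM6, a thioesterase-like protein, was at 12.78 in N87-TR4, 11.75 in N87-TR1 and 11.76 in N87-TR2, the highest N87-TR4 level among the genes apart. DERL3, which serves the disposal of misfolded proteins in the endoplasmic reticulum, was at 7.67 against 6.41 and 6.59. On the lower side, PLAC1, a gene known from placenta, was at 8.02 against 9.56 and 9.14.

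For many of the genes apart, the lines outside the comparison lay on the same side as N87-TR4. N87-TR3 was above both reference lines for 35 of the 54 higher genes (64.8%), against 49.1% of all genes on which N87-TR4 was above both. It was below both for 20 of the 39 lower genes (51.3%), against 33.8%. NCI-N87 was above both for 31 of the 54 (57.4%, against 46.4%) and below both for 27 of the 39 (69.2%, against 55.4%). The reference levels enter both sides of these counts, so they are given as a description.

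Gene lists were described by how many members lay above or below both reference lines, against 30.9% and 30.5% of all genes tested. Of the 38 lists with at least 20 tested members, 5 had at least 50% of them on one side, and these are given next. The members named in these 5 accounts that were not apart were chosen after their values were seen. The shares varied little with level: from the dimmest to the brightest 25% of genes, 30% to 31.7% lay above both and 29.6% to 30.9% below both.

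Genes of cholesterol and fatty acid synthesis lay mostly above both reference lines. Of 35 tested, 23 (65.7%) were above both and 5 below both, with a median log2 difference of 0.29 against 0.01 for all genes. The median level of the list was 10.37 in N87-TR4, 9.68 in N87-TR1, 10.275 in N87-TR2 and 10.25 in N87-TR3. By this median N87-TR4 was close to N87-TR2, and N87-TR1 was the lower reference line. IDI1 and MSMO1 were apart. IDI1, the isomerase that makes dimethylallyl diphosphate for sterols, was at 11.47 in N87-TR4, 9.46 in N87-TR1 and 10.33 in N87-TR2, a log2 difference of 1.58 ± 0.47 (SE). MSMO1, a sterol C4 methyl oxidase, was at 12.17 against 10.83 and 11.13. Both were higher in N87-TR4 than in N87-TR3 (9.65 and 10.65) and NCI-N87 (10.09 and 10.99). Of the 3 MSMO1 probes detected, the brightest 2 were higher in N87-TR4, and the third was at 7.77 against 8.02 and 8.09. With the mean of the detected probes MSMO1 was no longer apart.

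The other members lay less than 2-fold from the nearer reference line. HMGCS1, which makes HMG-CoA, was at 12.84 in N87-TR4, 11.05 in N87-TR1 and 12.13 in N87-TR2, and SQLE, the squalene epoxidase, at 13.18 against 11.27 and 12.62. For both, N87-TR4 was nearer to N87-TR2 than N87-TR2 was to N87-TR1. The sterol sensor INSIG1 was at 13.65 against 12.69 and 13.11, the demethylase CYP51A1 at 10.30 against 9.10 and 10.03, and the desaturase SCD at 13.97 against 13.06 and 13.64. The mevalonate decarboxylase MVD was at 6.93 against 7.37 and 7.06, and the elongase ELOVL1 at 8.44 against 9.04 and 9.04, both below. Of the 30 members detected on all 3 arrays, 20 lay above both. Without N87-TR1 the count above the remaining line was 24, and without N87-TR2 it was 29.

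Interferon-stimulated genes also lay mostly above both reference lines. Of 37 tested, 23 (62.2%) were above both and 3 below both, with a median log2 difference of 0.33, and 3 were apart. IFITM3, a membrane protein that blocks virus entry, was at 8.18 in N87-TR4, 6.64 in N87-TR1 and 5.74 in N87-TR2, where it was not detected. PARP14, a mono-ADP-ribosyltransferase, was at 8.30 against 6.85 and 6.37, a log2 difference of 1.69 ± 0.38 (SE). SAMD9, an antiviral factor, was at 6.44 against 4.88 and 5.39 and, of the compared lines, was detected only in N87-TR4. It was at least 1.128-fold higher and close to the lowest detected level of that array, 6.17. All 3 genes were far higher in NCI-N87, at 12.09, 11.80 and 11.95, and N87-TR3 was at 7.74, 7.78 and 7.07.

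The wider set was split between members with close and with distant reference lines. IRF7, the master factor of interferon induction, was at 9.89 in N87-TR4, 9.09 in N87-TR1 and 8.33 in N87-TR2, and IFIT5 at 7.47 against 6.85 and 6.85. The RNA sensor IFIH1 was at 8.08 against 7.47 and 5.57, and BST2, a tether of budding virus, at 7.96 against 7.75 and 6.28. In both, N87-TR4 was nearer to N87-TR1, and the reference lines were 1.90 and 1.47 apart. ISG15, a ubiquitin-like modifier, was at 8.02 against 8.99 and 8.78, and the exonuclease ISG20 at 8.26 against 8.94 and 9.19, both below. Of the members, 5 were detected only in N87-TR4. Of the 24 detected on all 3 arrays, 14 lay above both (58.3%, against 30.4% of all genes so detected) and 2 below both.

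**Figure D4:**
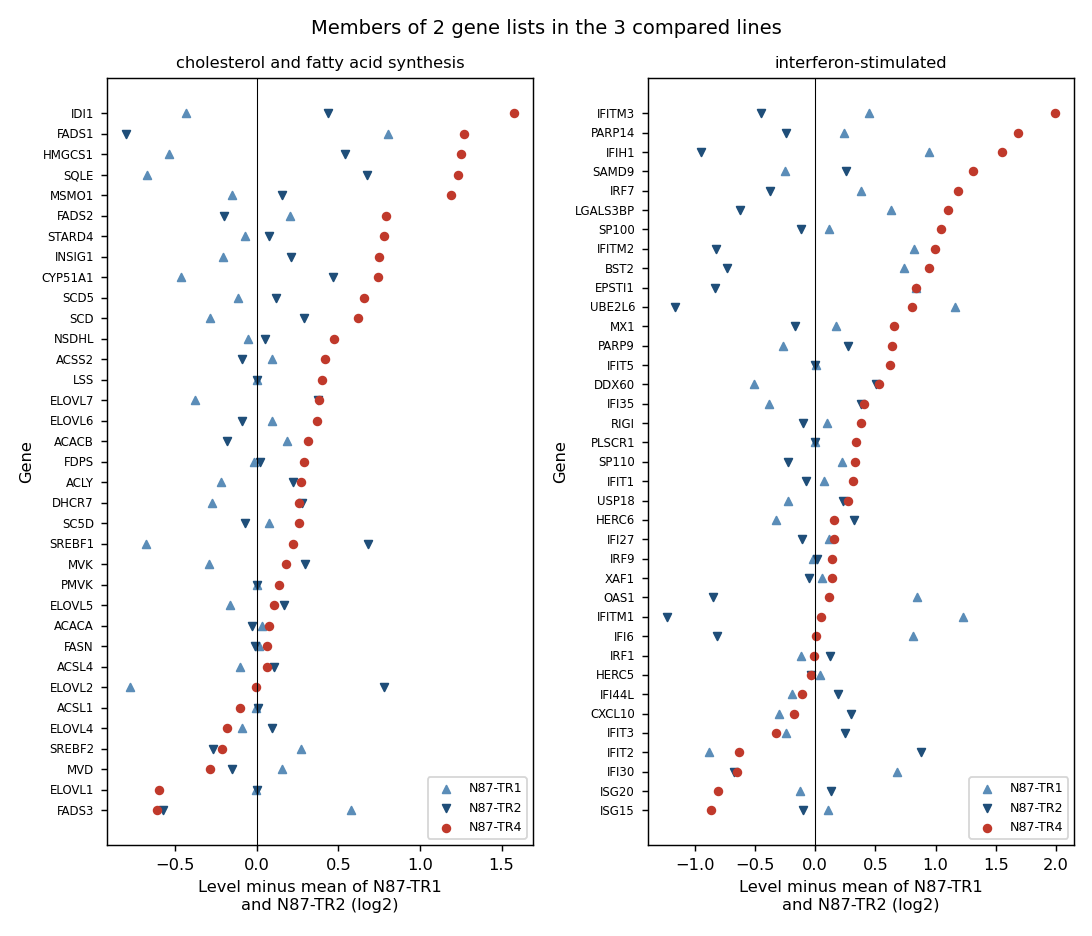
Level of each member (y axis) of the cholesterol and fatty acid synthesis list (left) and the interferon-stimulated list (right) minus the mean of N87-TR1 and N87-TR2 (x axis, log2), with 1 symbol per line. N87-TR4 (red circles) lies to the right of both reference symbols for 23 of 35 genes on the left and 23 of 37 on the right.

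Feedback targets of MAPK signalling lay lower. Of 20 tested, 10 (50%) were below both and 3 above both, with a median log2 difference of -0.30, and ETV5 and EPHA2 were apart. ETV5, an ETS factor, was at 7.89 in N87-TR4, 9.31 in N87-TR1 and 9.34 in N87-TR2, a log2 difference of -1.44 ± 0.33 (SE). It was at 10.73 in N87-TR3 and 9.68 in NCI-N87, so N87-TR4 was the lowest of the 5 lines. A second, dimmer ETV5 probe was at 6.29 against 6.81 and 6.73, a difference of -0.48, and with the mean of the probes ETV5 was no longer apart. EPHA2, an ephrin receptor, was at 6.39 against 8.12 and 7.41. Its distance from the nearer line was -1.01, close to the limit, and it stayed apart under 3 of the 6 other normalizations. The stress-induced gene IER3 was at 8.37 against 10.20 and 9.34, and the AP-1 factor JUN at 11.59 against 13.08 and 12.39. The direct ERK phosphatase DUSP6 was at 7.27 against 7.66 and 7.33, slightly below both. SPRY2, an inhibitor of receptor kinase signalling, was at 11.17 against 10.87 and 10.86, so not all members were lower.

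In the respiratory chain and axon guidance lists, more members were below both lines, with 0 apart in each. Of 42 tested respiratory chain genes 25 (59.5%) were below both and 9 above both, with a median log2 difference of -0.14. The widest was the complex I subunit NDUFA13, at 10.58 in N87-TR4, 11.23 in N87-TR1 and 11.46 in N87-TR2. The complex I subunit NDUFS1 was at 8.49 against 7.90 and 7.79. None of the 42 differed by 2-fold between any pair of the 3 lines. Of 42 tested axon guidance genes 21 (50%) were below both and 7 above both, with a median log2 difference of -0.23. The netrin receptor UNC5A was at 6.33 against 7.48 and 7.17, and SEMA6C, a semaphorin, at 8.04 against 8.83 and 8.69. The plexins PLXNA1, PLXNA2 and PLXNA3 were below both too, while the Slit receptor ROBO1 was above both, at 9.51 against 8.75 and 8.77.

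**Figure D5:**
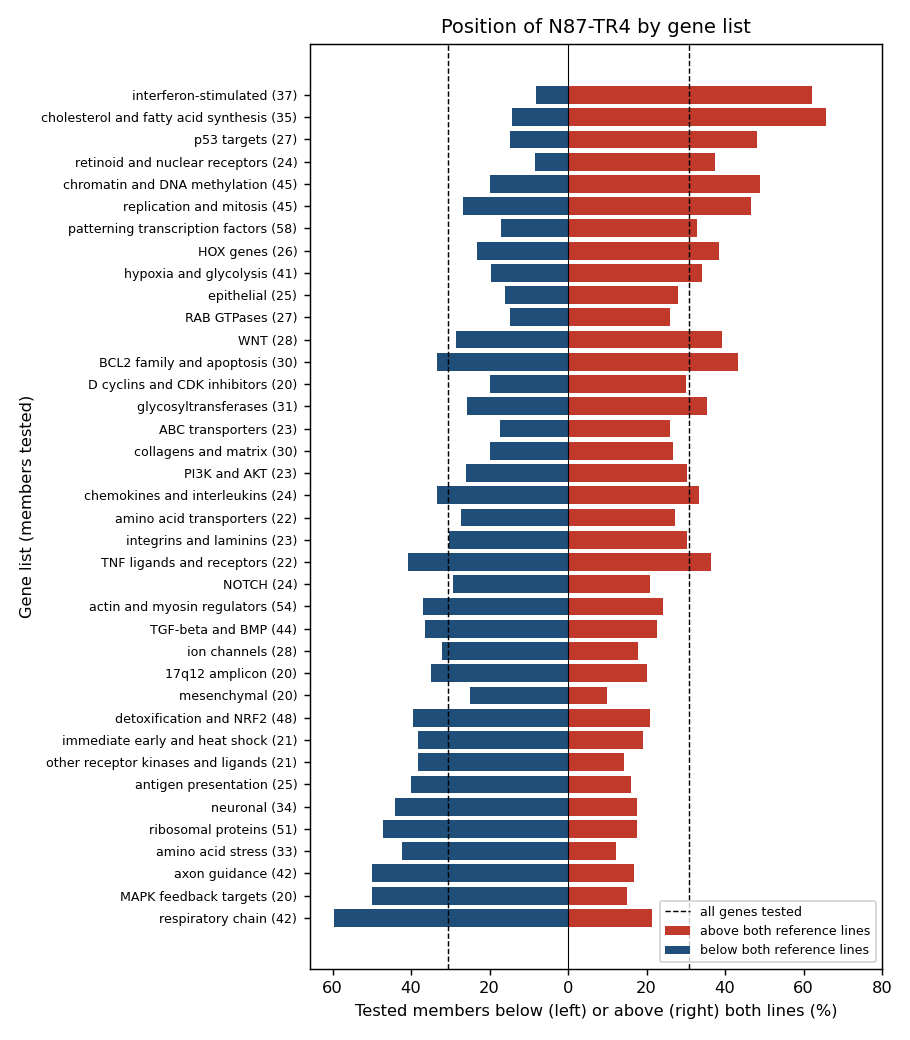
Share (x axis, percent) of the tested members of each list with at least 20 tested genes (y axis, number tested in brackets) for which N87-TR4 lay above (red, right) or below (blue, left) both reference lines. Dashed lines mark the shares over all genes tested, 30.9% above and 30.5% below, and cholesterol and fatty acid synthesis reaches 65.7% above.

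None of the ERBB receptors was apart. ERBB2 was at 10.54 in N87-TR4, 10.22 in N87-TR1 and 10.73 in N87-TR2, between the reference lines. It was at 10.31 in N87-TR3 and far higher, at 15.90, in NCI-N87, so the resistant lines were all well below the sensitive line. ERBB3, a partner of ERBB2, was at 7.19 in N87-TR4, between 8.22 and 6.36, and EGFR at 7.96, below 8.16 and 8.86. The receptor FGFR3 was at 12.90, between 13.03 and 12.52, and the growth factor FGF9, one of its ligands, at 10.64, between 11.11 and 9.88. N-cadherin (CDH2), vimentin (VIM), the receptor MET and the cyclins CCND1 and CCND2 also lay between the reference lines. The drug exporter ABCB1 was at 8.04 against 8.64 and 9.33, below both, with a log2 difference of -0.94 ± 0.43 (SE). MYC was at 11.48 against 11.91 and 12.21, and IGFBP5, which binds insulin-like growth factors, was at 14.87 against 14.58 and 14.44. In the list of ERBB receptors and ligands 5 of 7 tested genes (71.4%, against 30.5% of all genes tested) were below both and 0 above. The median log2 difference was -0.67. This list is smaller than the minimum set for the lists described above, so its share is only a description. ERBB2 and ERBB3 were the members between the reference lines, so the count below both came from EGFR and members not named here. GRB7 and KRT19 were not detected in any of the 3 lines and were not tested.

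By detection, 319 genes were found in N87-TR4 only and 135 in both reference lines only. For comparison, 255 were found in N87-TR1 only and 261 in N87-TR2 only, and 10107 in all 3. At a detection p under 0.05 the first pair of counts was 510 and 162. The N87-TR4 array had the highest median signal and the most detected genes, and the part of this in the count was not tested. The median level of the 319 genes detected only in N87-TR4 was 6.35 in that line, against a lowest detected level of 6.17 on its array.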

How the data were processed

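RNA of 5 cell lines was measured on 1 Illumina BeadChip array each, and the 3 resistant lines N87-TR4, N87-TR1 and N87-TR2 were compared. The authors deposited a signal intensity per probe, linear and not normalized, and beside each deposited intensity a detection p-value against negative controls. The submitters' processing notes name GenomeStudio with no version. The authors' processed intensity, deposited separately by a method not given in the sources used here, was used as an alternative (each array's median is 146.3).

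The neqc function (limma 3.58.1, R 4.3.3, offset 16) was run over all 5 arrays, which corrects the background by the detection p-values, equalizes the quantiles and takes log2. Probes were named through the platform annotation and RefSeq (GRCh38.p14): 30111 of 47318 had 1 symbol, 8 several, and 17199 are unnamed here. A gene took its brightest detected probe over the 3 arrays. Of 15 genes apart with several detected probes, 13 had all probes differing from the reference mean in the same direction, and INPP5D and MSMO1 did not. In 6 of the 15, all probes differed from that mean by at least 2-fold in the same direction.

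The difference of N87-TR4 from the mean of N87-TR1 and N87-TR2 was fitted with lmFit and eBayes, two-sided. Nothing in the labels says that the lines are separate derivations, so the p-values rest on the spread of these arrays alone, which may be technical. Where a gene was undetected on the dimmer side, the fold is "at least": the brighter side was set against a floor on each dim array, either its lowest detected level or the gene's own level if that was higher. With 1 array a line, the number of arrays limits the precision. The fits were tested on simulated data.

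The named genes were the 20 widest in each direction measured on all 3 arrays, the 12 brightest in each direction detected on one side, the apart members of 65 gene lists, and a fixed set of receptors and markers. The text gives only some of them. The members, the rules and the lists were chosen with earlier results of these data known. The alternatives were other background, normalization, detection, probe and threshold choices, and leaving out each reference line.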

Additional observations from a re-analysis of the deposited data

How the results depend on the processing

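The count of genes apart was 93 and depended on how dim signals were treated. It was 14 with no background correction, 40 at an offset of 50, 11 on the authors' processed values, 43 with detection on all 3 arrays, 15 at a 3-fold minimum and 257 at 2-fold from the mean with no gap condition. Without N87-TR1 it was 457 and without N87-TR2 784, since the gap condition is then gone by construction. The list members apart, 21 in the main setting, were 5, 12, 4 and 10 under the first 4 of these, and 120 and 124 without each reference line. Of the 93 genes, 11 stayed apart under all 6 other normalizations. No named gene that was apart changed sign under any alternative run, but this says little about stability. Genes apart lie at least 2-fold outside both reference levels, so leaving out a reference line cannot change the sign. The detection settings reuse the same values. Whether the call was kept is more telling: of the 93 genes, 88 stayed apart under cyclic loess, 14 with no background correction and 11 on the authors' values. Of the 68 named genes apart, 38 could be followed with detection on all 3 arrays. For 2-fold pairs, N87-TR4 and N87-TR1 gave 188 genes with no background correction, 400 at an offset of 50, 156 on the authors' values and 402 with detection on all 3 arrays. N87-TR4 and N87-TR2 gave 106, 219, 89 and 223, and N87-TR1 and N87-TR2 gave 287, 564, 249 and 537, so the order of the pairs was the same in each.

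By limma, 1 gene, NEFM, passed under cyclic loess, at an offset of 50, without background correction, after scaling to the 75th percentile, at a detection p under 0.05, with an intensity trend or an adjusted p under 0.1, and 2 genes, NEFM and PRAC1, passed on the authors' values. The other limma settings run gave 0. The interferon-stimulated genes above both lines were 14 with detection on all 3 arrays, of 24 members so detected. For the cholesterol list this count was 20 to 29 over 12 alternatives added later, and for the respiratory chain list 24 to 29 below both. Genes detected in N87-TR4 only were 510 at a detection p under 0.05. Genes near the detection limit are the least certain, and 55 of the 93 lie in the dimmest 25% of genes. The labels give no pairing between the arrays, so no paired analysis was possible.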
